A study of Mus musculus with 18 samples.

Results

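Receptors and bridging proteins for the uptake of apoptotic cells were followed across 6 groups of mouse bone-marrow-derived macrophages, which are macrophages grown in culture from marrow precursors. The set was chosen by gene symbol and holds 6 of the 11164 genes listed in the deposited expression table: the receptors Mertk, Axl, Timd4 and Stab1 and the bridging proteins Gas6 and Mfge8. The 6 genes were proposed with results of these libraries known, and Mertk had been named among the larger differences of BAFF KO from WT with LPS; which other values entered the choice is not recorded. Mertk's differences that rest on BAFF KO with LPS are therefore given as a description with no p, and the other p-values of the 6 genes are those of a fit across all genes and are not independent evidence. All 6 passed the filter on low values (1 RPKM or more as the mean of some group), Timd4 only through WT and APRIL KO with LPS.

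The cells came from BAFF KO mice, APRIL KO mice and WT mice (strain C57BL/6J in the labels), and were either given LPS, the bacterial lipopolysaccharide sensed through TLR4, at 10 ng/ml for 4 h or left unstimulated. BAFF and APRIL are cytokines of the TNF family best known for sustaining B cells and plasma cells. The labels of all groups also carry a time point of day 16 of gestation. They do not say how the knockouts were made, nor which animal or culture each library came from, so every p-value reflects the spread among libraries and that spread may be technical. With LPS there were 2 libraries each of BAFF KO, APRIL KO and WT. Without LPS there was 1 library each of BAFF KO, APRIL KO and WT, so unstimulated genotypes were compared with no test.

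Dying cells expose phosphatidylserine, a lipid normally kept on the inner face of the plasma membrane, and phagocytes recognise it either directly or through a soluble bridge. MerTK and Axl are receptor tyrosine kinases of the TAM family and bind phosphatidylserine through Gas6 (MerTK also through protein S). MerTK is the main TAM receptor of resting macrophages and couples uptake to a damping of inflammatory signalling, whereas Axl is known for its induction by inflammatory stimuli. TIM-4, the product of Timd4, binds phosphatidylserine directly and tethers the dying cell; stabilin-1 (Stab1) is a scavenger receptor that also binds it; and MFG-E8 (Mfge8) links it to integrins.

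The starts of Mertk, Axl and Timd4 are shown first. These are the receptors that were higher with LPS averaged over genotypes, though not in each genotype, and 2 of them differed most between BAFF KO and WT with LPS. Each run covers 250 bases before and 50 bases after the gene's start in RefSeq (GRCm38.p6, the mm10 build), read 5′ to 3′ on the gene's own strand. The windows were chr2:128698665-128698964 (plus strand) for Mertk, chr7:25788684-25788983 (minus strand) for Axl and chr11:46810549-46810848 (plus strand) for Timd4. Capitals mark matches, on either strand, to AGGTCA, the core letters bound by many nuclear receptors.
Mertk: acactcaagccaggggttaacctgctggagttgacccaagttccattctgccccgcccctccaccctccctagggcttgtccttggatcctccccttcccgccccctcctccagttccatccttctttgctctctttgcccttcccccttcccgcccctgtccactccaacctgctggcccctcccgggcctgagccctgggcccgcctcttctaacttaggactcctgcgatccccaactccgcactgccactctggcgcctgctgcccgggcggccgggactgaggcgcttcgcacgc
Axl: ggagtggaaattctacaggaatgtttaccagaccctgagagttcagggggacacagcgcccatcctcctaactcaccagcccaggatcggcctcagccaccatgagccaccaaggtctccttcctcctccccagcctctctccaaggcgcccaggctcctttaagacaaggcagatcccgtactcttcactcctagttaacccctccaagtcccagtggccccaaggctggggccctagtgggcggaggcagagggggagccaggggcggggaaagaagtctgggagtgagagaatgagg
Timd4: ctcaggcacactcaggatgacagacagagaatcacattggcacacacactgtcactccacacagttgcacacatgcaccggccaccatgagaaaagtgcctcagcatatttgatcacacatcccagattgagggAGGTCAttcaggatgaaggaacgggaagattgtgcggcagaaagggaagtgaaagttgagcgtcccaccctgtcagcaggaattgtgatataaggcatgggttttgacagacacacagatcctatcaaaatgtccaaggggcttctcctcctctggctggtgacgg

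Of these windows only that of Timd4 held AGGTCA, starting at base 135 of the run. Of 32851 mouse promoter windows of the same length, 16.26% held AGGTCA, and the windows of the other 5 genes did not. No window of the 6 genes held TATAAA, the TATA box letters found in 13.62% of promoters. The windows also differed in CpG content: Mertk held 14 CpG dinucleotides, Axl 6 and Timd4 5, against a median of 7 over all promoters. These are descriptions of letters in a window, not of bound factors.

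Reads in listed genes numbered 5121833 to 6020780 per library. The APRIL gene Tnfsf13 had 0 reads in the APRIL KO libraries, which allows up to 0.176 RPM, against 645 reads (40.4 RPM) in WT libraries. The BAFF gene Tnfsf13b is not in the rows used here, so the BAFF KO label could not be checked in this way. Macrophage markers summed to 4501 to 7580 RPKM in every library (7 markers). Of markers for resident tissue macrophages, Gata6, Lyve1 and Vsig4 were not among the listed genes. The 5 listed, which include Timd4 itself, summed to 144 to 191 RPKM in BAFF KO with LPS, 193 to 219 RPKM in APRIL KO with LPS and 95.7 to 128 RPKM in WT with LPS, and their part in the differences was not tested. Of these Marco, a scavenger receptor, was 143 and 97.0 RPKM in BAFF KO, 182 and 146 RPKM in APRIL KO, and 52.9 and 69.1 RPKM in WT with LPS. Folr2 did not follow that order, at 44.7 and 44.4 RPKM in BAFF KO, 30.3 and 39.6 RPKM in APRIL KO, and 35.8 and 52.3 RPKM in WT with LPS. Of the 5, 1 was higher and 1, Timd4, lower in BAFF KO than in WT with LPS (3.99% and 4.35% of all genes). In APRIL KO 0 were higher and 0 lower.

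Levels below are RPKM, read counts divided by gene length and by depth, averaged over a library's 2 columns. Differences are of log2(RPKM + 1), a scale that makes changes of low genes look smaller, and were tested with limma over 9934 genes with Benjamini-Hochberg adjustment. The median of all genes fell by 0.44 with LPS, so changes with LPS are also given after median ratio scaling, which brings that median to -0.07.

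**Figure D1:**
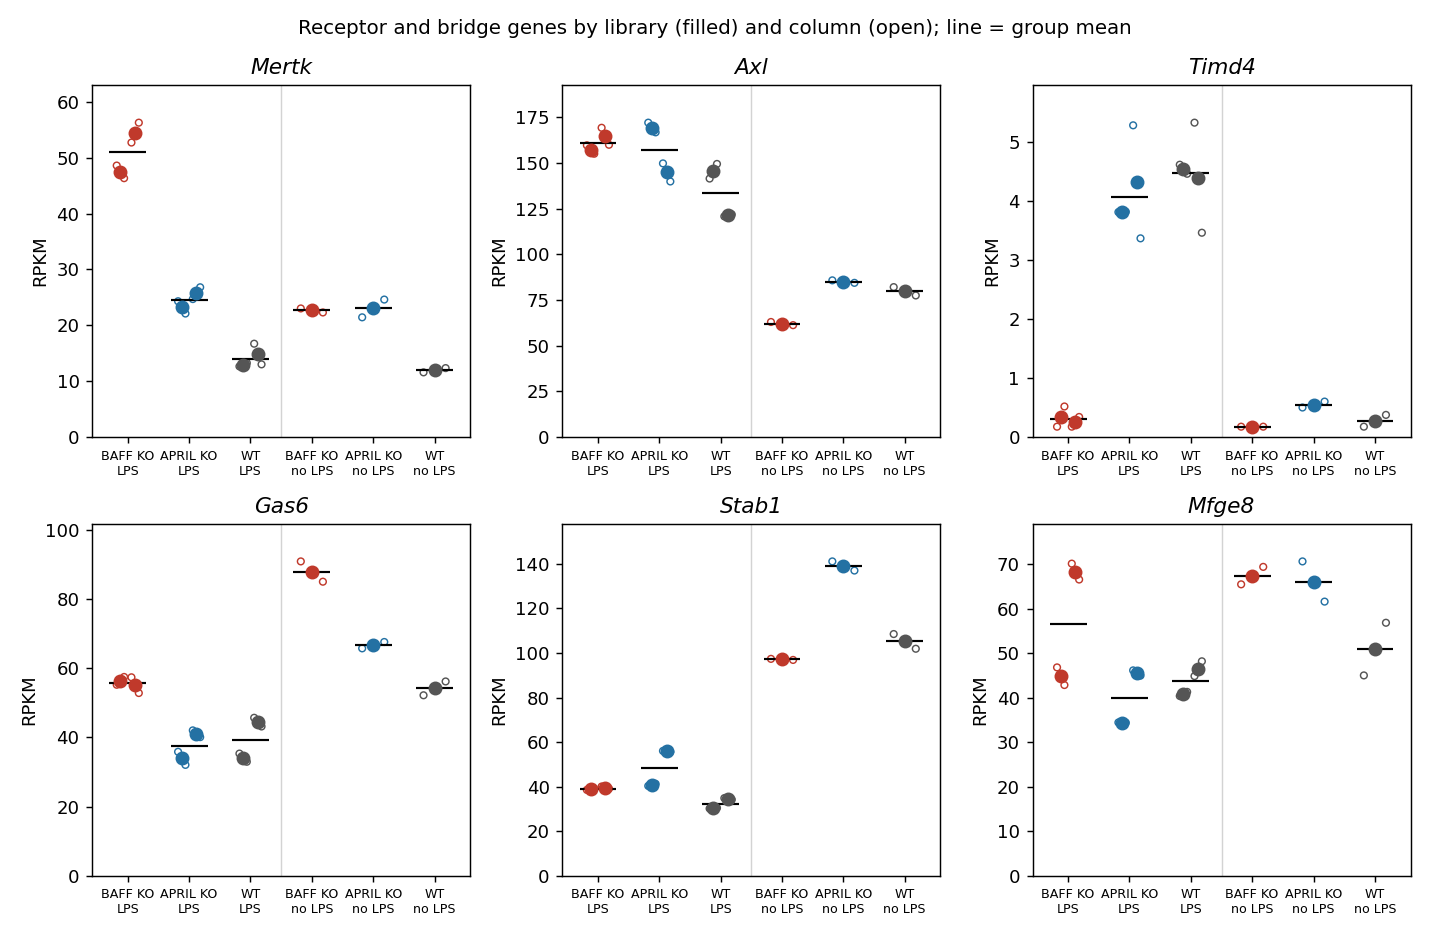
RPKM (linear axis from 0) of the 6 genes in each library (filled points) and each of its columns (open points), with the group mean as a line, for BAFF KO, APRIL KO and WT with LPS and then for the same genotypes without LPS. Mertk was highest in BAFF KO with LPS at 47.5 and 54.5 RPKM, and Timd4 was at 3.81 to 4.53 RPKM in APRIL KO and WT with LPS and under 0.6 RPKM elsewhere.

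Mertk (chromosome 2, 128698956 to 128802894, plus strand) was highest in BAFF KO macrophages given LPS. Its level was 47.5 and 54.5 RPKM in the BAFF KO libraries with LPS, 23.2 and 25.8 RPKM in the APRIL KO libraries with LPS, and 12.96 and 14.86 RPKM in the WT libraries with LPS. Without LPS it was 22.7 RPKM in BAFF KO, 23.0 RPKM in APRIL KO and 11.96 RPKM in WT. The 3 genotypes did not overlap with LPS, whereas without LPS the knockouts differed by less than the gap between columns of a library and both stood above WT.

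The BAFF KO mean with LPS of 51.0 ± 4.97 RPKM was 3.67 times the WT mean of 13.9 ± 1.34 RPKM (SD, n = 2 each), a log2 difference of 1.80 (SE 0.12). It was 2.08 times the APRIL KO mean of 24.5 ± 1.79 RPKM (SD, n = 2), a log2 difference of 1.03. APRIL KO exceeded WT with LPS 1.76-fold, a log2 difference of 0.77 (95% interval 0.50 to 1.05). That difference did not pass the threshold (adjusted p = 0.065). It passed after median ratio scaling (adjusted p = 0.049) and in voom on recovered reads (adjusted p = 0.018). The WT libraries with LPS also entered the difference for which Mertk was named, so these p-values lend no independent support. Without LPS the ratio to WT was 1.90 in BAFF KO and 1.93 in APRIL KO, with 1 library each and no test.

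The BAFF KO libraries with LPS stood at 2.25 times the unstimulated one in Mertk, a log2 difference of 1.13 given with no p, since these are the values for which the gene was named. Its differences with LPS were 0.08 in APRIL KO (adjusted p = 0.63) and 0.20 in WT (adjusted p = 0.26). After median ratio scaling these became 0.54 (adjusted p = 0.018) in APRIL KO and 0.64 (adjusted p = 0.0089) in WT, so whether LPS moved Mertk outside BAFF KO depended on the scaling. The WT libraries with LPS behind the WT values also entered the difference for which Mertk was named. The LPS response of BAFF KO exceeded that of WT by 0.93, given as a description for the same reason. That difference did not pass the threshold in the fit. The LPS response of APRIL KO differed from that of WT by -0.12 (95% interval -0.59 to 0.36, adjusted p = 0.998). An antisense gene, Gm14011, and a small nucleolar RNA lie within Mertk and are not among the listed genes; strand use in counting is not given, so their reads cannot be told apart from those of Mertk.

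Axl (chromosome 7, 25757273 to 25788705, minus strand) was the most abundant of the 4 receptors with LPS, and rose with LPS in every genotype. Its level was 157 and 165 RPKM in BAFF KO with LPS against 62.1 RPKM in unstimulated BAFF KO. It was 169 and 145 RPKM in APRIL KO with LPS against 85.1 RPKM in unstimulated APRIL KO. In WT it was 146 and 121 RPKM with LPS against 79.8 RPKM without.

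Every library with LPS stood above every one without it, and the log2 rise was 1.36 in BAFF KO (adjusted p = 0.00017), 0.87 in APRIL KO (adjusted p = 0.0014) and 0.73 in WT (adjusted p = 0.0034). With LPS the APRIL KO libraries spanned those of BAFF KO, and the difference from WT was 0.27 in BAFF KO (95% interval 0.01 to 0.54; adjusted p = 0.18) and 0.24 in APRIL KO (95% interval -0.03 to 0.50; adjusted p = 0.37). The response of BAFF KO minus that of WT was 0.63 (95% interval 0.17 to 1.09; adjusted p = 0.14). Unstimulated BAFF KO stood 0.36 below unstimulated WT, with 1 library each.

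The ratio of Axl to Mertk is given for each library as a description. Axl per Mertk, both per length, was 3.32 and 3.02 in BAFF KO with LPS, 7.30 and 5.63 in APRIL KO with LPS, and 11.2 and 8.17 in WT with LPS. Without LPS it was 2.74 in BAFF KO, 3.70 in APRIL KO and 6.67 in WT. BAFF KO was lowest and WT highest in each condition. These ratios follow from the levels above and were not tested. The third TAM receptor, Tyro3, is not among the listed genes.

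Timd4 (chromosome 11, 46810800 to 46844332, plus strand) appeared with LPS in WT and APRIL KO and stayed near the read floor in BAFF KO. The columns with LPS held 0, 3, 0 and 2 reads in BAFF KO, 14, 31, 20 and 27 reads in APRIL KO, and 16, 34, 18 and 25 reads in WT. Without LPS the columns held 0 and 0 reads in BAFF KO, 1 and 4 in APRIL KO, and 0 and 2 in WT. Every BAFF KO column with LPS lay below every APRIL KO and WT column with LPS.

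Summed over libraries with LPS, Timd4 had 5 reads in BAFF KO, 92 in APRIL KO and 93 in WT. The BAFF KO level was 0.0498 times that of WT (exact 95% interval 0.0158 to 0.120) and that of APRIL KO was 0.909 times that of WT (exact 95% interval 0.674 to 1.23). These intervals cover counting error only. In RPKM the group means with LPS were 0.302 ± 0.0627 in BAFF KO, 4.07 ± 0.36 in APRIL KO and 4.46 ± 0.101 in WT (SD, n = 2 each); the deposited values hold 1 added read per column, which raises the lowest levels.

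Because Timd4 entered the filtered fit through its high groups, its tests are given from the fit with no filter, over all 11164 genes. The gene filter behind the deposited table was not given, so Timd4 may have been listed only through the same groups. These p-values are thus not shown to be free of that selection and lend no independent support. On the log2 scale Timd4 fell by 2.07 in BAFF KO relative to WT with LPS (adjusted p = 0.0017) and by 1.96 relative to APRIL KO (adjusted p = 0.0019). APRIL KO differed from WT by -0.11 (95% interval -0.45 to 0.23 in the filtered fit; adjusted p = 0.72). LPS raised Timd4 by 1.71 in APRIL KO (adjusted p = 0.00035) and by 2.10 in WT (adjusted p = 0.00016), each against 1 unstimulated library, and its difference in BAFF KO was 0.15 (adjusted p = 0.46). The response of BAFF KO minus that of WT was -1.95 and did not pass with no filter (adjusted p = 0.050), although it did in the filtered fit (adjusted p = 0.028). In the filtered fit it did not pass when any 1 of the 6 libraries with LPS was left out (differences -2.00 to -1.90). In those fits BAFF KO minus WT with LPS was -2.12 to -2.02. Timd4 entered them through its high groups too, so they lend no support. In voom on recovered reads the difference of responses was -1.72 (adjusted p = 0.57), with 0 reads in unstimulated BAFF KO and 2 in unstimulated WT.

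Stab1 (chromosome 14, 31139013 to 31168641, minus strand) fell with LPS in all 3 genotypes. Its level was 38.8 and 39.6 RPKM in BAFF KO with LPS against 97.1 RPKM without. It was 40.8 and 55.8 RPKM in APRIL KO with LPS against 139 RPKM without. In WT it was 30.3 and 34.5 RPKM with LPS against 105 RPKM without.

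All libraries with LPS lay below all libraries without it. The log2 falls were -1.29 in BAFF KO (adjusted p = 0.00068), -1.52 in APRIL KO (adjusted p = 0.00031) and -1.67 in WT (adjusted p = 0.00021), and they stayed past the threshold after median ratio scaling, at -0.86 in BAFF KO, -1.05 in APRIL KO and -1.20 in WT. With LPS neither knockout passed the threshold against WT. The difference was 0.27 in BAFF KO (95% interval -0.07 to 0.60; adjusted p = 0.30) and 0.55 in APRIL KO (95% interval 0.21 to 0.88; adjusted p = 0.20). Its last 112 bases overlap Nt5dc2 on the opposite strand, which is listed at 10.0 to 59.2 RPKM, so some reads there may be shared.

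**Figure D2:**
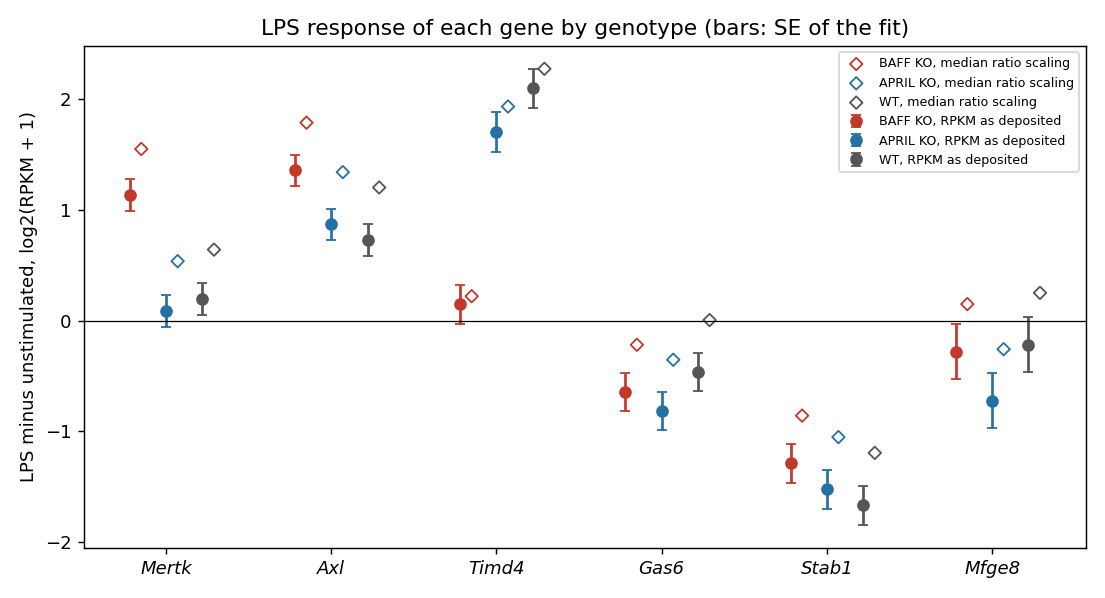
Difference of LPS-treated from unstimulated macrophages on the log2(RPKM + 1) axis for each gene, with BAFF KO left of APRIL KO and WT; filled points with SE bars are deposited RPKM and open diamonds are median ratio scaling. Axl lies above 0 and Stab1 below 0 in all 3 genotypes under both scalings, and Gas6 and Mfge8 move towards or across 0 with the scaling. Timd4 stands near 0 in BAFF KO alone, where it rests on 5 reads with LPS and 0 without, so its size there is not settled.

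Gas6 (chromosome 8, 13465374 to 13494490, minus strand), the TAM ligand, was lower with LPS in each genotype in deposited RPKM and was highest in BAFF KO in both conditions. Its level was 56.3 and 55.1 RPKM in BAFF KO with LPS against 87.9 RPKM without. It was 33.9 and 41.0 RPKM in APRIL KO with LPS against 66.6 RPKM without, and in WT it was 34.1 and 44.4 RPKM with LPS against 54.1 RPKM without. With LPS the BAFF KO libraries stood above the other 4, among which APRIL KO and WT overlapped.

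Averaged over genotypes, Gas6 fell by 0.64 on the log2 scale with LPS (adjusted p = 0.00051). After median ratio scaling its difference was -0.19 (adjusted p = 0.13), but under quantile scaling it was -0.70 (adjusted p = 0.00027), where the median of all genes was -0.178. Whether the fall of Gas6 exceeded that of the median gene thus depended on the scaling. BAFF KO minus WT with LPS was 0.51 (95% interval 0.18 to 0.83), short of the threshold (adjusted p = 0.068), and past it in voom on recovered reads (adjusted p = 0.028). BAFF KO minus APRIL KO with LPS was 0.57 (adjusted p = 0.063; voom adjusted p = 0.021). APRIL KO minus WT was -0.06 (95% interval -0.38 to 0.27; adjusted p = 0.88). Its 3′ end overlaps Tmem255b on the opposite strand over 3100 bases, a gene not among those listed.

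Mfge8 (chromosome 7, 79133768 to 79149060, minus strand) encodes a bridge that binds phosphatidylserine and integrins, and its libraries within BAFF KO with LPS lay well apart. Its level was 44.8 and 68.3 RPKM in BAFF KO with LPS, 34.4 and 45.6 RPKM in APRIL KO with LPS, and 40.9 and 46.5 RPKM in WT with LPS. Without LPS it was 67.4 RPKM in BAFF KO, 66.1 RPKM in APRIL KO and 50.9 RPKM in WT. All 3 groups with LPS overlapped.

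Averaged over genotypes, Mfge8 fell by 0.41 with LPS (adjusted p = 0.030), and its difference under quantile scaling was -0.45 (adjusted p = 0.020). After median ratio scaling its difference was 0.05 (adjusted p = 0.78). The fall also missed the threshold without WT library 14 (-0.38, adjusted p = 0.069) or APRIL KO library 20 (-0.34, adjusted p = 0.059). Against WT with LPS its difference was 0.34 in BAFF KO (95% interval -0.13 to 0.81; adjusted p = 0.35) and -0.13 in APRIL KO (95% interval -0.61 to 0.34; adjusted p = 0.78). The length behind its RPKM is 2122 bases, against 4694 bases of exon in the annotation used for names, so its level relative to the other genes depends on the annotation.

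In the filtered fit with LPS averaged over genotypes, 6 of the 6 genes were past the threshold (3 higher and 3 lower), and so were 80.2% of all genes tested (18.1% higher and 62.1% lower). After median ratio scaling the calls over all genes were 2862 higher and 3283 lower, against 1802 higher and 6166 lower as deposited. With LPS 4 of 6 were past it in BAFF KO, with 2 higher and 2 lower (59.8% of all genes, 16% higher and 43.8% lower). There were 5 of 6 in APRIL KO, with 2 higher and 3 lower (62.1%, 14.4% higher and 47.8% lower), and 4 of 6 in WT, with 2 higher and 2 lower (60.3%, 13.7% higher and 46.7% lower). Between BAFF KO and WT with LPS 2 of 6 were past it, Mertk higher and Timd4 lower (8.34%, 3.99% higher and 4.35% lower), and between BAFF KO and APRIL KO the same 2 (5.54%, 2.48% higher and 3.06% lower). Between APRIL KO and WT 0 of 6 were past it (0.211%, 0.0101% higher and 0.201% lower; unadjusted p under 0.05 for Mertk and Stab1; voom and median ratio scaling each called 1, Mertk). The difference in LPS response passed for 1 of 6 between BAFF KO and WT (0.443%, 0.221% each way) and for 0 of 6 between APRIL KO and WT (0%, with 337 of all genes at an unadjusted p under 0.05). Mertk had been named for its BAFF KO values, Timd4 passed the filter only through its high groups, and the 6 genes were chosen with results known, so nothing is read from these counts or shares.

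**Figure D3:**
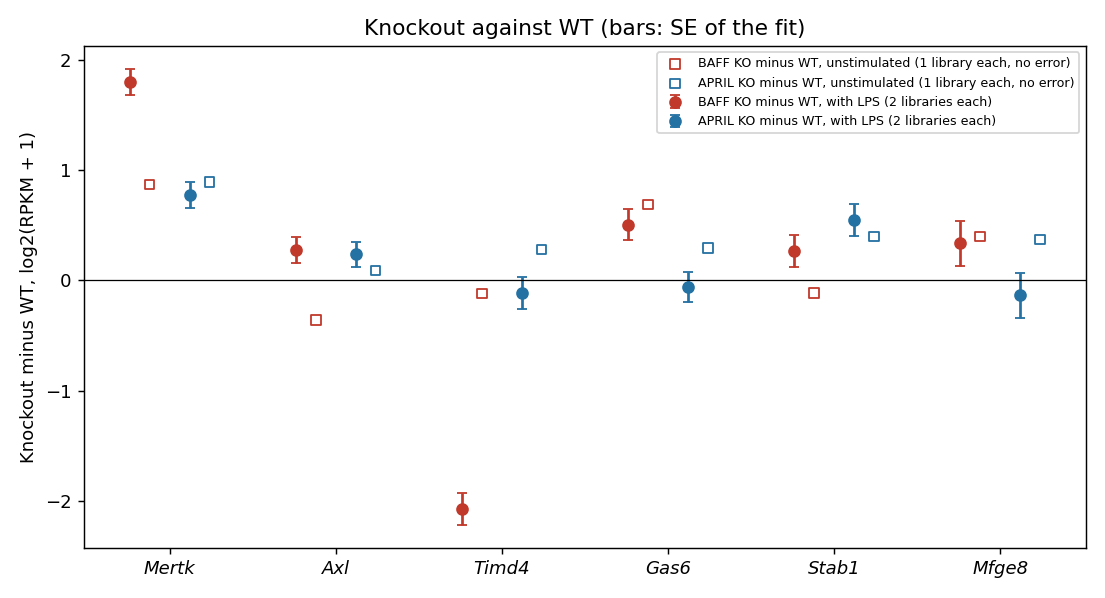
Difference of each knockout from WT on the log2(RPKM + 1) axis for the 6 genes; filled points with SE bars are cells given LPS (2 libraries each) and open squares are unstimulated cells (1 library each, no error). With LPS, BAFF KO stands at 1.80 for Mertk and -2.07 for Timd4, while the unstimulated BAFF KO values are 0.87 and -0.12.

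The 6 genes did not share a pattern over the 9 libraries. Pearson's r of log2 levels was 0.42 between Mertk and Axl, -0.42 between Mertk and Timd4, 0.85 between Gas6 and Mfge8, -0.85 between Timd4 and Gas6 and -0.84 between Axl and Stab1. The libraries share genotype, LPS and scaling, so these values describe the 9 points and carry no test.

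Among 5723 tested genes with a span of at least 1 log2 unit, those most like Mertk over the 9 libraries were Osbpl3 (r = 0.914), Ampd3 (r = 0.874) and Tbc1d2b (r = 0.872). Osbpl3, which encodes an oxysterol-binding protein family member, was 20.99 and 19.24 RPKM in BAFF KO with LPS and 5.97 to 8.93 RPKM in the other 7 libraries. Those most like Timd4 were Il19 (r = 0.986), a cytokine of the IL-10 family, Tle3 (r = 0.985), a transcriptional corepressor, and Sema4c (r = 0.982), a semaphorin. Il19 was 0.698 and 0.656 RPKM in BAFF KO with LPS, 6.59 and 6.83 RPKM in APRIL KO with LPS, and 6.76 and 9.40 RPKM in WT with LPS. Without LPS Il19 was at 0.353 to 0.428 RPKM in the 3 libraries.

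**Figure D4:**
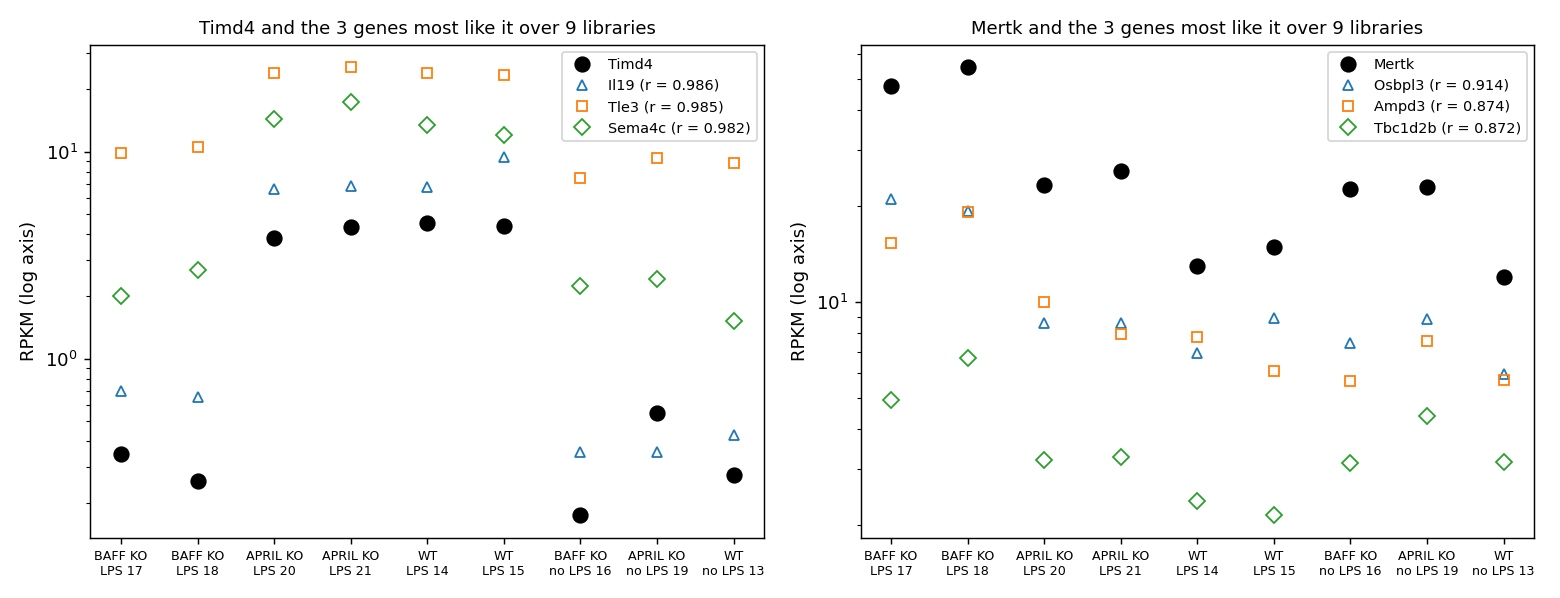
RPKM on a log axis of Timd4 (left) and Mertk (right), each with the 3 genes most like it by Pearson's r, in the 9 libraries ordered BAFF KO, APRIL KO and WT with LPS, then the same genotypes unstimulated (numbers are those of the labels). Il19, Tle3 and Sema4c are high in APRIL KO and WT with LPS, as Timd4 is, and Osbpl3 is high in BAFF KO with LPS.

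The nearest genes to Axl were Trim12c (r = 0.996), Mdfic (r = 0.993) and Rab8b (r = 0.993), and to Stab1 Abca2 (r = 0.996), Cenpc1 (r = 0.994) and Golga1 (r = 0.992). Gas6 was most like Trim68 (r = 0.984), Pgd (r = 0.975) and Chil3 (r = 0.97), and Mfge8 most like Chchd6 (r = 0.949), 1110012L19Rik (r = 0.903) and E130309D02Rik (r = 0.899). Chil3, a marker of monocytes, was 407 and 436 RPKM in BAFF KO with LPS, 199 and 230 RPKM in APRIL KO with LPS, and 177 and 246 RPKM in WT with LPS.

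Some markers of other cells differed with genotype. Counts of markers below stand against 3.99% of all genes higher and 4.35% lower in BAFF KO than in WT with LPS. Neutrophil and precursor granule genes (9 of 10 listed, without Ly6g) summed to 2324 to 2705 RPKM in BAFF KO with LPS, 1593 to 1628 RPKM in APRIL KO with LPS and 1344 to 1702 RPKM in WT with LPS. Without LPS they summed to 5778 RPKM in BAFF KO, 2734 RPKM in APRIL KO and 3069 RPKM in WT. Of the 9, 7 were higher in BAFF KO than in WT with LPS. Monocyte markers (7 of 7 listed) summed to 705 to 819 RPKM in BAFF KO with LPS, 418 to 427 RPKM in APRIL KO with LPS and 334 to 499 RPKM in WT with LPS, and 3 of 7 were higher in BAFF KO than in WT. The macrophage list gave 0 higher and 1 lower of 7 in the same comparison. B cell markers (5 of 5 listed) were low throughout, at 11.3 to 16.9 RPKM in BAFF KO, 26.0 to 29.6 RPKM in APRIL KO and 23.3 to 26.8 RPKM in WT with LPS, and 1 of 4 tested was lower in BAFF KO than in WT. Osteoclast markers (3 of 5 listed) summed to 39.9 to 51.6 RPKM in BAFF KO, 30.3 to 34.2 RPKM in APRIL KO and 33.7 to 38.5 RPKM in WT with LPS, with 1 of 3 higher in BAFF KO than in WT. In bulk samples, fewer cells of a type and less RNA per cell cannot be told apart, and the part of these markers in the differences of Mertk, Timd4 and Gas6 was not tested.

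Skeletal muscle genes (13 of 14 listed, without Pvalb) ran the other way, at 34.3 to 43.9 RPKM in BAFF KO with LPS, 24.1 to 55.2 RPKM in APRIL KO with LPS and 214 to 315 RPKM in WT with LPS. They were 22.4 RPKM in unstimulated BAFF KO, 33.9 RPKM in unstimulated APRIL KO and 212 RPKM in unstimulated WT. Of 10 tested, 9 were lower in BAFF KO (4.35% of all genes) and 4 in APRIL KO (0.201% of all genes) than in WT with LPS. Fibroblast markers (7 of 8 listed, without Lum) summed to 9.42 to 44.5 RPKM in BAFF KO with LPS, 14.9 to 434 RPKM in APRIL KO with LPS and 53.9 to 225 RPKM in WT with LPS, with library 21 of APRIL KO the highest. Their part in the differences between knockouts and WT was not tested either.

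The counts in the lists that follow stand against 18.1% of all genes higher and 62.1% lower with LPS averaged over genotypes, and 3.99% higher and 4.35% lower in BAFF KO against WT with LPS. Other receptors and bridges for apoptotic cells (22 tested) went in both directions. With LPS averaged over genotypes 7 were higher and 11 lower, and 10 higher and 7 lower after median ratio scaling; their median was -0.26 against -0.44 over all genes. Olr1, a lectin-like scavenger receptor, rose by 2.11 and the LPS co-receptor Cd14 by 1.66, while Cd300lb, which binds phosphatidylserine, fell by 3.64 and the endocytic receptor Lrp1 by 2.13, with the same direction and call under median ratio scaling. In BAFF KO with LPS 2 were higher than in WT and 3 lower, with a median of -0.04 against 0.02 over all genes.

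The class A scavenger receptor Msr1 was 51.3 ± 0.685 RPKM in BAFF KO, 140 ± 8.67 RPKM in APRIL KO and 126 ± 7.75 RPKM in WT with LPS (SD, n = 2 each). It fell by 1.27 in BAFF KO relative to WT (adjusted p = 0.00053) and kept its call without any 1 library. Cd14 fell by 0.90 (adjusted p = 0.0087), not past the threshold without either BAFF KO library. Olr1 fell by 0.89, and Scarf1, a scavenger receptor that binds C1q, rose by 0.74 and Cd36 by 0.40 (adjusted p 0.02 to 0.047), none of the 3 past the threshold without any 1 of the BAFF KO or WT libraries.

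The machinery that engulfs and matures the phagosome (29 tested) had 6 genes higher and 17 lower with LPS averaged over genotypes, and 15 higher and 9 lower after median ratio scaling. The GTPases Rhog (0.53) and Rab5a (0.49) rose, and the autophagy enzyme Atg7 (-1.57) and the engulfment adaptor Elmo2 (-1.21) fell, under both scalings. Only Crkl, a signalling adaptor, rose in BAFF KO relative to WT with LPS, by 0.88, at 3.55 ± 0.239 RPKM in BAFF KO and 1.47 ± 0.0238 RPKM in WT (SD, n = 2 each). It lost its call without any 1 of those 4 libraries. The list's median was 0.01 against 0.02 over all genes.

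Among signals that attract phagocytes or spare cells (16 tested), 4 were higher and 7 lower with LPS, and 7 higher and 3 lower after median ratio scaling. The spare-me signal Cd47 rose by 1.25 and the lysophospholipid receptor Gpr132 by 0.71, and the receptor for CD47, Sirpa, fell by 1.39 and the fractalkine receptor Cx3cr1 by 0.80. In BAFF KO relative to WT with LPS, Sirpa rose by 0.51 and the inhibitory receptor Pirb fell by 0.40. Sirpa lost its call without either WT library or without BAFF KO library 18, and Pirb without any 1 of the BAFF KO or WT libraries.

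Nuclear receptors and sterol handlers, which deal with the lipid load of an engulfed cell (20 tested), had 2 genes higher and 17 lower with LPS, and 4 higher and 13 lower after median ratio scaling; the median was -0.83 against -0.44 over all genes. Pparg fell by 2.75 and Rxra by 2.01, while the glucocorticoid receptor Nr3c1 rose by 1.07 and the lysosomal sterol carrier Npc2 by 0.45. In BAFF KO relative to WT with LPS 4 rose and 0 fell, with a median of 0.19 against 0.02 over all genes.

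Mylip, a ubiquitin ligase for the LDL receptor and a known target of LXR, was 29.0 ± 0.662 RPKM in BAFF KO, 10.2 ± 0.513 RPKM in APRIL KO and 8.16 ± 0.188 RPKM in WT with LPS (SD, n = 2 each). It rose by 1.71 in BAFF KO relative to WT (adjusted p = 0.00028) and kept its call without any 1 library. The sterol exporter Abcg1 rose by 0.70, the lysosomal lipase Lipa by 0.55 and the apolipoprotein Apoe by 0.41. Abcg1 lost its call without WT library 15 or either BAFF KO library, Lipa without WT library 15 or BAFF KO library 18, and Apoe without any 1 library with LPS and under median ratio scaling (adjusted p = 0.057). Under that scaling the list counted 3 higher and 1 lower.

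Of genes that shed receptors or limit shedding (7 tested), 4 were higher and 2 lower with LPS, and 5 higher and 1 lower after median ratio scaling. Rhbdf2, the partner of ADAM17, rose by 1.94 and the protease inhibitor Timp1 by 1.85; the protease Adam10 fell by 1.34; and Adam9 fell by 0.23, turning to 0.22 after median ratio scaling. In BAFF KO relative to WT with LPS Adam10 rose by 0.53 and Adam17, which cleaves MerTK, by 0.34. Adam10 lost its call without WT library 15 or either BAFF KO library, and Adam17 without any 1 library with LPS. Timp1 was 18.74 and 21.97 RPKM in BAFF KO, 24.98 and 112.3 RPKM in APRIL KO, and 138 and 79.5 RPKM in WT with LPS. Its BAFF KO minus WT difference was -2.31 (adjusted p = 0.052, and 0.0497 after median ratio scaling). In the same libraries the fibroblast markers summed to 9.42 to 44.5 RPKM in BAFF KO, 14.9 to 434 RPKM in APRIL KO and 53.9 to 225 RPKM in WT. Library 21 of APRIL KO held the higher value of both in its group, and the part of these markers in Timp1 was not tested.

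TAM receptor signalling (14 tested) had 6 genes higher and 7 lower with LPS, and 8 higher and 4 lower after median ratio scaling. Il10, the anti-inflammatory cytokine, rose by 5.24 and Socs3, an inhibitor of cytokine signalling, by 4.21, and the kinase Akt1 and the factor Stat6 each fell by 1.10. In BAFF KO relative to WT with LPS 2 rose and 4 fell. Il10 was 69.3 and 64.9 RPKM in BAFF KO, 141 and 136 RPKM in APRIL KO, and 172 and 140 RPKM in WT with LPS, a fall of 1.19 in BAFF KO (adjusted p = 0.0018) that kept its call without any 1 library.

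Socs3 fell by 1.06 in BAFF KO relative to WT, at 12.1 and 19.3 RPKM against 37.0 and 29.1 RPKM, and its call was lost without any 1 library with LPS except BAFF KO library 18. The interferon receptor chain Ifnar1 fell by 0.69 and lost its call without BAFF KO library 17, and the kinase Pik3cd fell by 0.44 and lost it without any 1 library. The regulatory subunit Pik3r1 rose by 0.89, lost without any 1 of the BAFF KO or WT libraries, and the scaffold protein Ranbp9 by 0.55, lost without WT library 15 or either BAFF KO library.

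Genes of phosphatidylserine exposure (9 tested) had 2 higher and 3 lower with LPS, and 5 higher and 0 lower after median ratio scaling. Plscr1 rose by 1.87 and the scramblase Xkr8 by 1.30; the flippase gene Atp8b4 fell by 0.64 and the scramblase Ano6 by 0.42, neither past the threshold after median ratio scaling (-0.21 for Atp8b4 and 0.02 for Ano6). In BAFF KO relative to WT with LPS the flippases Atp11a and Atp8a1 rose by 0.76 and 0.64. Atp11a lost its call without any 1 library with LPS except BAFF KO library 17, and Atp8a1 without any 1.

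**Figure D5:**
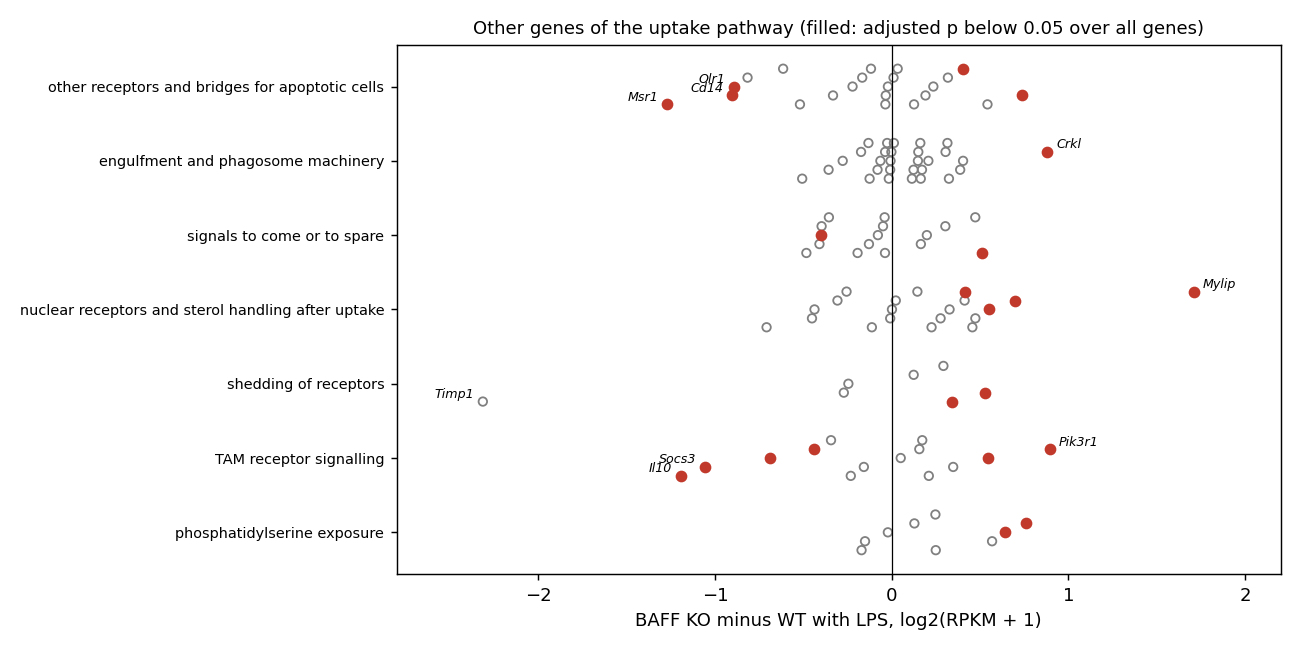
BAFF KO minus WT with LPS on the log2(RPKM + 1) axis for the tested genes of 7 lists around apoptotic cell uptake, 1 point a gene; filled points passed the threshold over all genes, and genes beyond 0.85 either way are named. Mylip lies farthest to the right at 1.71, Msr1 at -1.27 and Il10 at -1.19 lie farthest to the left among filled points, and Timp1 at -2.31 did not pass.

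Over the 7 lists, 22 of the 117 genes tested passed in BAFF KO against WT with LPS, where 8.34% of all genes did. The lists were chosen with earlier results of these data known, so nothing is read from this count or share. Msr1, Mylip and Il10 were those that kept their call whichever library with LPS was left out. In APRIL KO against WT with LPS 0 of the 117 passed by limma, where 0.211% of all genes did. In voom on recovered reads 0 passed, against 84 over all genes. An unadjusted p under 0.05 was found for 23 of the 117 and for 1539 of all 9934 genes, and nothing is read from these counts either. The nearest to the threshold were Ifnar1 (0.41), Itgav (0.46) and Adam10 (0.41) with adjusted p of 0.19 to 0.20. Of the genes on the lists, Tyro3, Adgrb1, Megf10, Ager, Edil3, Gulp1, P2ry12, Socs1, Twist1, Twist2 and Vkorc1 were not among the listed rows and were not analysed here.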

How the data were processed

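RNA isolation used the mirVana kit and sequencing gave single reads of 85 bp on a NextSeq 550, per the labels' protocols, which name both a directional and a TruSeq kit, so strand is unclear. STAR and mm10 are named in the submitters' processing notes; the counter, annotation and gene filters were not given in the sources used here. A single table of RPKM values was deposited, with 11164 genes in 18 columns, 2 for each of 9 library numbers; columns of a number differed less than different libraries and were averaged as 1 sample. Symbols came from GENCODE M21 (11084 of the IDs; 80 had none).

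Every gene's RPKM steps gave whole reads (100% of genes within 0.01 read, after removing 1 added read per column). Columns held 1649338 to 4078562 reads, so low genes such as Timd4 rest on few reads.

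The main test was limma 3.58.1 in R 4.3.3 on log2(RPKM + 1), with 6 group means, 3 residual degrees of freedom, a mean-variance trend and Benjamini-Hochberg adjustment over the 9934 genes with a group mean of at least 1 RPKM; the threshold was 0.05. Shared control libraries link the comparisons. The fit was repeated with median ratio or quantile scaling, a pseudocount of 0.1, no filter, columns taken separately or singly, a replicate block, limma voom on recovered reads, a fold of at least 2 and leaving out each library with LPS. Exact 95% intervals of read ratios are binomial.

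The 6 genes, the gene lists and the tests were chosen with earlier results of these data known. Named genes were, per list and comparison, up to 2 rises and 2 falls past the threshold or else the smallest p, to which the other genes called in BAFF KO against WT, and Timp1, were added after their values were seen. Likeness was Pearson's r over the 9 libraries among tested genes with a symbol and a span of at least 1 log2 unit.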

Additional observations from a re-analysis of the deposited data

Results flagged for a closer look

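The LPS response of Timd4 was noted because its interaction term between BAFF KO and WT passed the threshold in the filtered limma fit: the response of BAFF KO minus that of WT was -1.95 on the log2(RPKM + 1) scale (adjusted p = 0.028). The 2 BAFF KO libraries with LPS and the 1 without held 5 and 0 reads, and those of WT held 93 and 2 reads. Each unstimulated arm is 1 library, assumed to vary like the groups with 2. The difference did not pass with no filter on low values (adjusted p = 0.050), in any of the 6 fits that left out a library (adjusted p 0.055 to 0.13) or in voom on recovered reads (adjusted p = 0.57), and Timd4 entered the filtered fit only through WT and APRIL KO with LPS.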

How the results depend on the processing

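Over the 6 genes and 9 comparisons, 791 of the values under an alternative kept direction and side of the threshold, 22 newly passed it, 39 no longer did and 12 changed sign. The causes of these changes were not tested. The sign changes under a scaling or column choice were those of Mfge8 with LPS under median ratio scaling (0.05 averaged, 0.15 in BAFF KO, 0.25 in WT) and of Mertk with LPS in APRIL KO in the higher-numbered column (-0.01). Leaving out each library gave ranges across 0 for Gas6 in APRIL KO against WT (-0.24 to 0.13), for Mfge8 in the same comparison (-0.33 to 0.06), with LPS in BAFF KO (-0.58 to 0.02) and in the response of BAFF KO minus WT (-0.36 to 0.24), for Axl in BAFF KO against APRIL KO (-0.07 to 0.15) and for Stab1 in the response of APRIL KO minus WT (-0.07 to 0.37).

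Counts of the 6 genes past the threshold moved as follows. A fold of at least 2 left 2 with LPS averaged, in APRIL KO and in WT. Columns as separate samples, which treats repeat columns as replicates, gave 5 for BAFF KO against WT, 5 for BAFF KO against APRIL KO, 3 for APRIL KO against WT and 3 for the response of BAFF KO minus WT. APRIL KO against WT gave 1 under median ratio scaling and 1 in voom. The response of BAFF KO minus WT gave 0 with no filter, in either column alone, with the replicate block and in every fit without 1 library (0 to 0).

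Over all genes, BAFF KO against WT called 828, with 173 at a fold of at least 2, 2706 with separate columns, 229 in the lower-numbered column and 215 to 584 without 1 library. BAFF KO against APRIL KO called 550, with 130 at a fold of at least 2, 1824 with separate columns, 164 in the lower-numbered column, 837 in voom and 96 to 418 without 1 library. APRIL KO against WT called 21, with 5 with no filter, 32 under median ratio scaling, 1361 with separate columns, 0 in the lower-numbered column, 84 in voom and 1 to 24 without 1 library. The response of BAFF KO minus WT called 44, with 15 with no filter, 70 under quantile scaling, 2193 with separate columns, 2 in the lower-numbered column, 15 with the replicate block, 599 in voom and 0 to 19 without 1 library; that of APRIL KO minus WT called 0, with 8 with separate columns, 1 in the lower-numbered column and 0 to 1 without 1 library. With LPS, a fold of at least 2 left 2374 of 7968 averaged, 2484 of 5943 in BAFF KO, 2712 of 6170 in APRIL KO and 2530 of 5992 in WT. For the replicate block, libraries were numbered by their order within a group. Deviations of same-numbered libraries with LPS correlated at -0.18 (BAFF KO and WT), -0.1 (APRIL KO and WT) and 0.12 (BAFF KO and APRIL KO). With 2 libraries in each of these groups, such values cannot decide whether samples were paired or shared a batch. With the replicate block Timd4 lost its call in the response of BAFF KO minus WT (adjusted p = 0.075), Mfge8 with LPS in BAFF KO gained a call (adjusted p = 0.035), and in BAFF KO against WT 0 receptors and bridges were higher, 0 spare signals lower, 1 shedding gene higher, 2 TAM signalling genes lower and 0 exposure genes higher.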
